A study of Mus musculus with 12 samples.

Results

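The genes described here are the splicing factors and heterogeneous nuclear ribonucleoprotein (hnRNP) genes of mouse embryonic stem (ES) cells in the first hours of retinoic acid (RA) exposure. They were set by a rule on names, and that rule was chosen with earlier results of these data known. A gene belongs if a probe set on the array carries it as its only gene symbol. The symbol must also start with Srsf, Tra2, Hnrnp, U2af, Sf3a, Sf3b, Snrp, Prpf or Rbm followed by a digit or letter. That gave 107 genes of the 18193 that could be tested, read by 295 of 45037 probe sets. By subfamily there were 10 Srsf, 2 Tra2, 19 Hnrnp, 3 U2af, 9 Sf3a or Sf3b, 9 Snrp, 12 Prpf and 43 Rbm genes. Of these, 33 had 1 probe set and 74 had 2 or more, up to 12 for Rbm39. The rule also takes in Rbm3os and Rbm46os, which are antisense RNAs and match by prefix only.

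The cells were KH2, a mouse ES cell line, grown on feeder cells in every group. Groups of 3 arrays, replicates A, B and C, were labelled no RA or 2, 4 or 6 h of RA. The treated cells were given 0.3 µM RA together with a differentiation medium, and the labels do not say that the untreated cells were given that medium, so RA and the change of medium cannot be told apart. All cells were replated on gelatin for 30 min before RNA was taken, and the protocols differ on whether the attached cells or the spun medium was kept. The labels do not call the replicates separate cultures, so the p-values reflect only how far these samples spread, and that spread may be technical.

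Introns are removed by the spliceosome, which is built from small nuclear ribonucleoproteins (snRNPs): U1 marks the start of an intron, U2 the branch site, and the U4/U6.U5 particle completes the machine. SR proteins, coded by the Srsf genes, mostly bind exons and favour their use, whereas hnRNP proteins often oppose it, and the balance between them sets which exons of a transcript are kept. The Rbm name marks an RNA-binding motif and no shared task: it covers splicing regulators, exon junction and RNA decay proteins, an RNA methylation cofactor and ribosome assembly factors.

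The arrays had median log2 values between 6.05 and 6.10, and the median of all deposited values, 6.07, is used below as a mark for dim genes, since no background measure was used here. All 10 ES cell markers looked for, among them Pou5f1, Nanog and Sox2, lay above it on every array. Of the 107 genes, 98 lay above it on every array and 6 lay under it on every array. Untreated replicate C stood apart, with a correlation over all probe sets of 0.993 with its replicates; 71 of the 107 genes were lower in it than the mean of A and B (median over all 107: -0.07). Feeder fibroblast markers moved with it: 18 of 24 were lower in untreated C (median over all 24: -0.42). Their summed linear level spanned 19860 to 23500 in the untreated arrays, 20520 to 22840 at 2 h, 20690 to 22900 at 4 h and 18380 to 20250 at 6 h, and 18 of 24 lay above 6.07 on every array. That sum is weighted to the brightest markers. The median log2 difference of the 24 from no RA was 0.23 at 2 h, 0.26 at 4 h and 0.16 at 6 h. Over all genes it was 0.0043, 0.0023 and -0.01. The 3′ minus 5′ signal of the Gapdh control was 0.015 to 0.047 in the untreated arrays and -0.049 to -0.007 in the RA arrays. The part of feeder content and RNA quality in the results was not tested. RNA came from whole cultures, so fewer cells of a type and less RNA per cell cannot be told apart.

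After 2 h of RA no gene of the set passed the test, and at 4 h more of them were called higher than lower. Each time was compared with no RA by limma with Benjamini-Hochberg adjustment over all 18193 genes, at an adjusted p under 0.05; a gene past that is called higher or lower. Each difference is a group mean minus another on the log2 scale, and SE is its standard error in that fit. At 2 h, 0 were higher and 0 lower, where over all genes 1.5% were higher and 1.19% lower; at an unadjusted p under 0.05 the numbers were 7 and 9. At 4 h, 28 of 107 (26.2%) were higher, against 12.8% of all genes, and 9 (8.41%) were lower, against 14.1%. At 6 h, 35 (32.7%) were higher, against 15.0%, and 8 (7.48%) lower, against 14.7%. The share of higher calls was thus above the background at both times, and the share of lower calls below it.

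The changes were small. The median difference over the 107 genes was -0.0079 at 2 h, 0.07 at 4 h and 0.07 at 6 h, beside 0.0043, 0.0023 and -0.01 over all genes. Among the called genes the median size was 0.33 at both 4 and 6 h, and 1 gene at 4 h, Rbm15, passed a 2-fold change. Arrays of the 2 groups did not overlap for 43 genes in the higher and 14 in the lower direction at 4 h, where all genes gave 18.3% and 18.7%, and for 42 and 11 at 6 h, where all genes gave 19.2% and 19.7%. Among only the genes above 6.07, the background was higher: 20.2% higher and 22.3% lower at 4 h, and 23.7% and 22.2% at 6 h. In that fit 100 of the 107 genes were tested, with 33 higher and 12 lower at 4 h and 34 and 9 at 6 h.

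**Figure D1:**
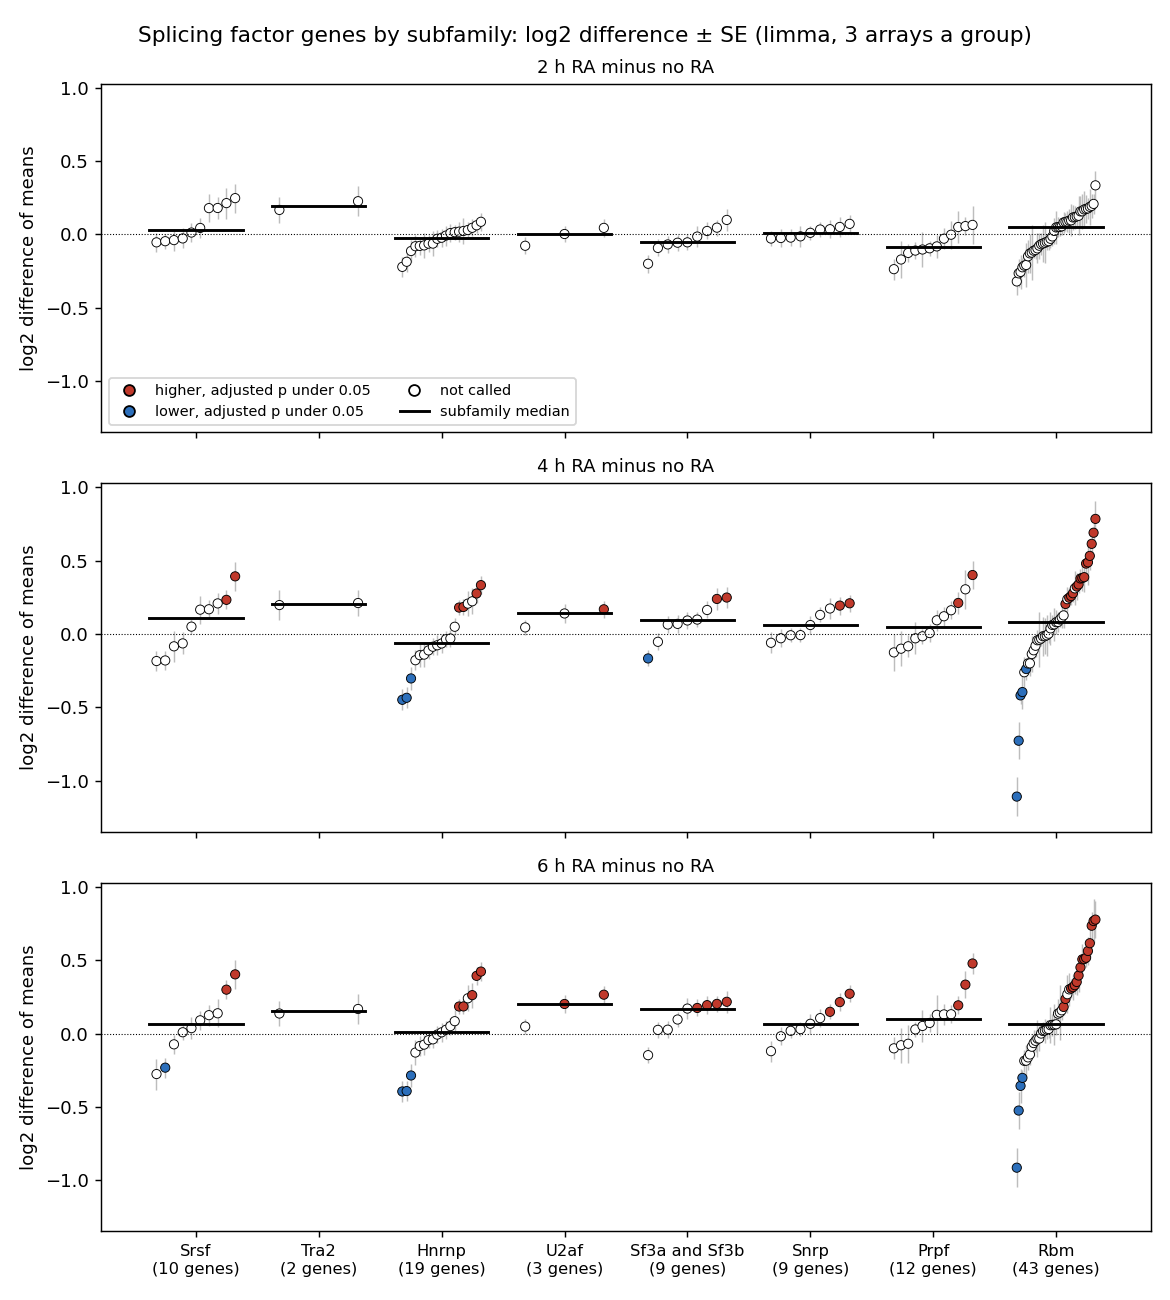
Log2 difference from no RA (y axis, mean of 3 arrays minus mean of 3 arrays, with SE) for each of the 107 genes, by subfamily (x axis), at 2, 4 and 6 h of RA; filled points are called by limma and the bar is the subfamily median. No point is filled at 2 h; at 4 h 28 genes are called higher and 9 lower, and at 6 h 35 and 8, with the widest spread in the Rbm genes.

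The calls at 4 and 6 h share the untreated arrays, and their values are given side by side. There were 25 genes called higher at both times and 7 called lower at both. Another 3 were called higher at 4 h only, 10 higher at 6 h only, 2 lower at 4 h only and 1 lower at 6 h only, and 59 were never called. The step from 4 to 6 h gave no call in either direction, where all genes gave 0.313% higher and 0.275% lower; at an unadjusted p under 0.05 it gave 5 and 1. A call at only 1 of the times is therefore not a shown difference between them. The step from 2 to 4 h compares RA groups only, though the untreated arrays enter the spread of the shared fit, and gave 23 genes higher (21.5%, background 12.7%) and 8 lower (7.48%, background 11.9%).

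These counts rest on few arrays. At 4 h the higher count fell to 17 without replicate A or without replicate B of the 4 h group, and at 6 h it fell to 21 without replicate A of the 6 h group. The lower count at 6 h was 5 without 6 h replicate B. In the step from 2 to 4 h the lower count was 4 without 2 h replicate C, 5 without 2 h replicate B or 4 h replicate C, and 14 without untreated C. Without untreated C the counts against no RA were 21 higher and 11 lower at 4 h and 30 and 12 at 6 h. Of the 28 genes higher at 4 h, 14 kept their call when each array in turn was left out, as did 6 of the 9 lower; at 6 h these numbers were 21 of 35 and 5 of 8.

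**Figure D2:**
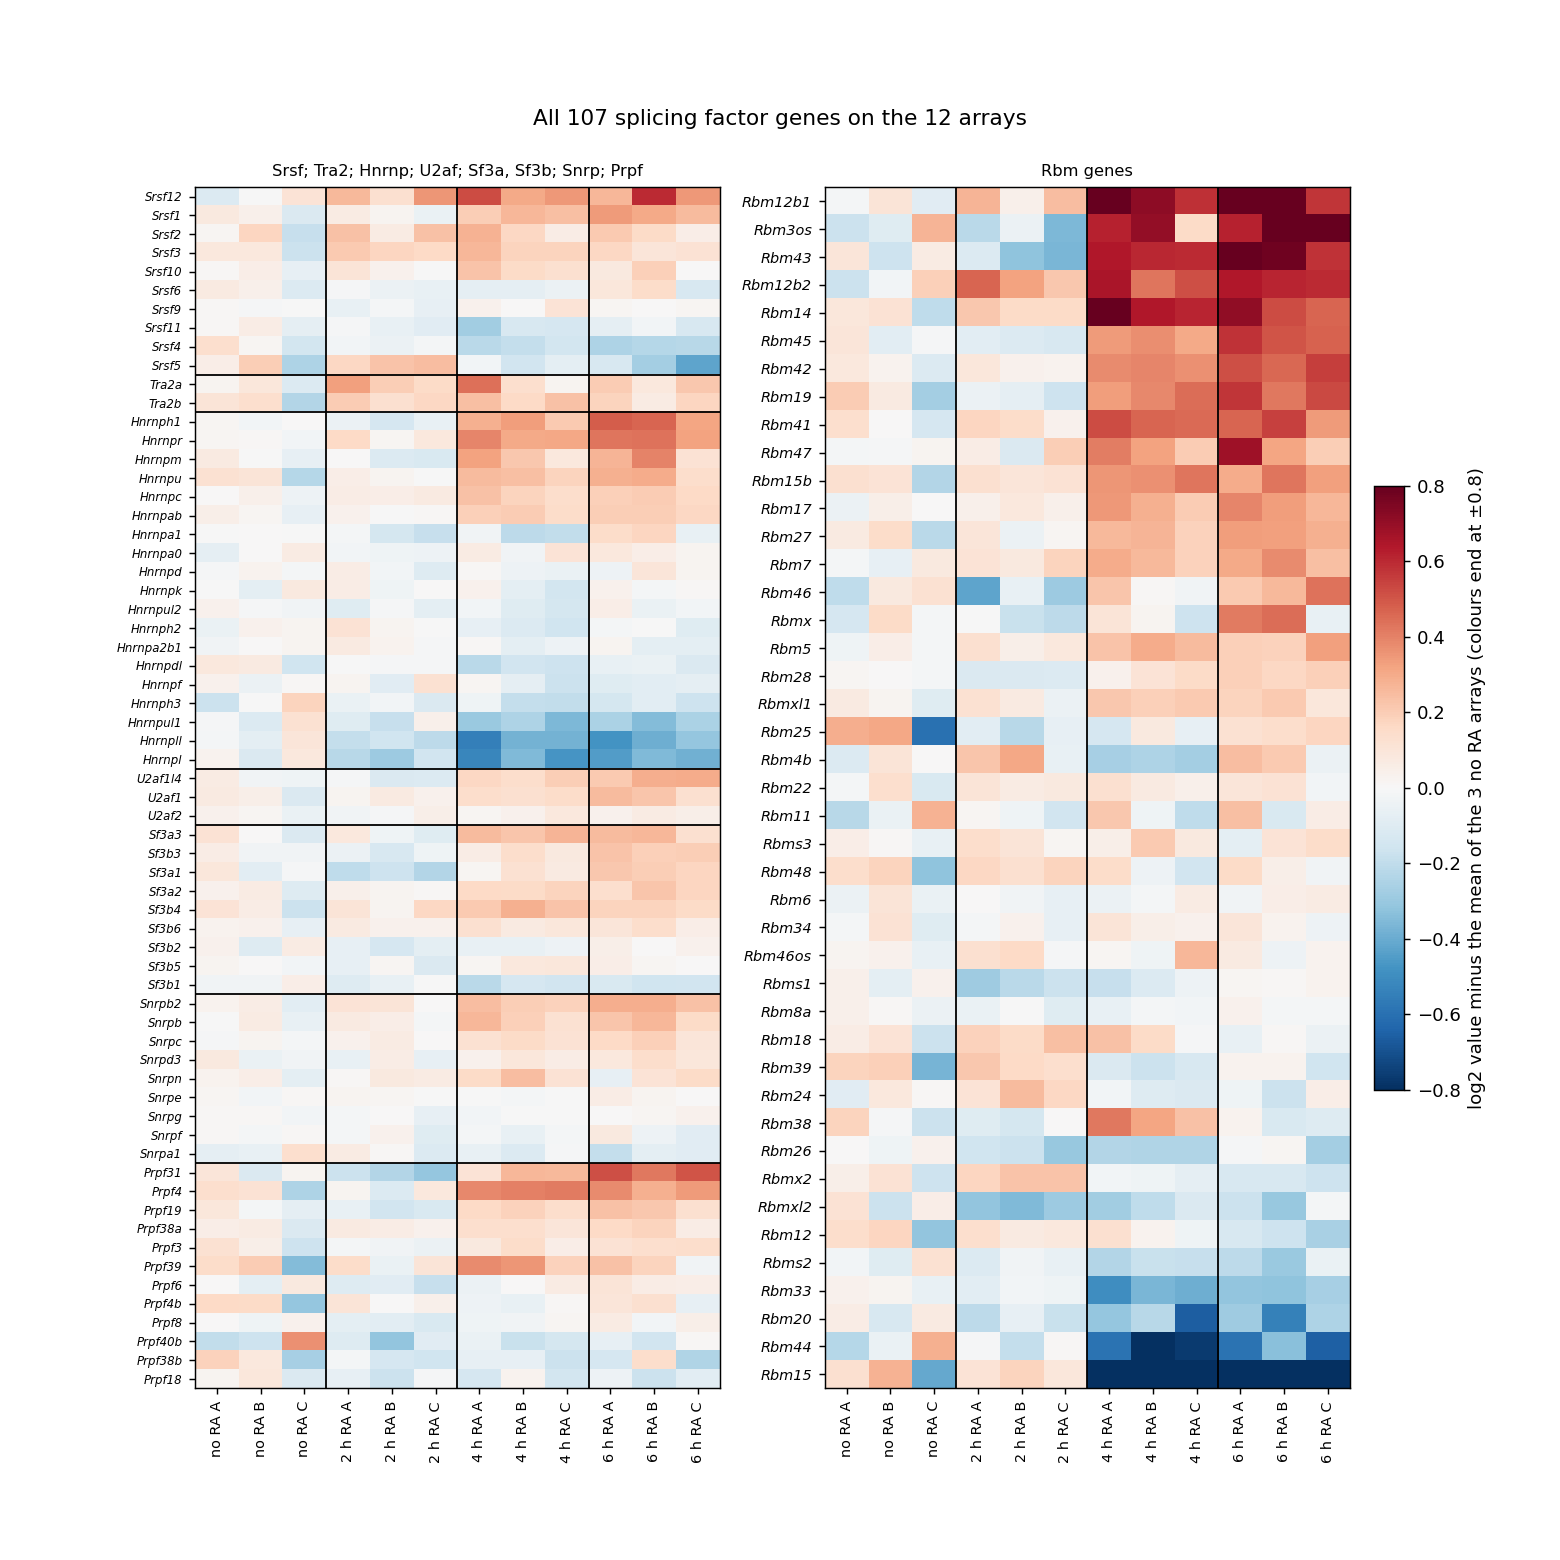
Log2 value on each of the 12 arrays (x axis, replicates A to C within each group) minus the mean of the 3 untreated arrays, for all 107 genes (rows, by subfamily and then by the difference at 6 h); red is higher, blue is lower, and colours end at 0.8. The columns at 4 and 6 h carry most of the colour, Rbm15 and Rbm44 are the darkest blue rows there, and untreated C differs from A and B in many rows.

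Promoter letters are shown for members that were higher at both 4 and 6 h, to set a shared feature beside genes that moved together. RefSeq promoter windows (GRCm38.p6, 250 bases before to 50 after the annotated start) were found for 93 of the 107 genes, 121 windows in all. The letters CCGGAA, a core that ETS-family factors can bind, on either strand, were in 38.0% of these windows, against 14.9% of all 32851 windows and 20.9% of those of genes on the array. CACGTG was in 11.6%, against 7.15% of all windows and 8.74% of those of genes on the array. TATAAA was in 9.92%, against 13.6% and 9.76%, so its share was near that of genes on the array. Among windows of genes higher at 4 h CCGGAA was in 14 of 31 (45.2%), among those of genes not called in 32 of 84 (38.1%), and among those of genes lower at 4 h in 0 of 6. Exact direct repeats of AGGTCA spaced by 5 or by 2 bases, a strict form of the RA receptor elements, were in 0 of the 121 windows and in 3 each of all 32851 windows. Strings this rare cannot show whether these promoters lack RA receptor elements. All these motif counts are matches of letters in a short window, not measured binding. Rbm42 (chr7:30650229-30650478, minus strand) and Snrpb2 (chr2:143062819-143063068, plus strand) each hold CCGGAA or its complement in 2 places, in capitals below. Rbm14 (chr19:4811635-4811884, minus strand), one of the largest rises, holds none of the 3 short motifs. The 250 bases before the start are printed 5′ to 3′ on the gene's strand.

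Rbm42: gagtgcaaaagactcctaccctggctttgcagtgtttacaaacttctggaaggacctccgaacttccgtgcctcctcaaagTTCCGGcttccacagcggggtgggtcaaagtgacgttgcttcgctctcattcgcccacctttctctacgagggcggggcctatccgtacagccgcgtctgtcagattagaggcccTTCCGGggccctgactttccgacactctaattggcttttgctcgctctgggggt
Snrpb2: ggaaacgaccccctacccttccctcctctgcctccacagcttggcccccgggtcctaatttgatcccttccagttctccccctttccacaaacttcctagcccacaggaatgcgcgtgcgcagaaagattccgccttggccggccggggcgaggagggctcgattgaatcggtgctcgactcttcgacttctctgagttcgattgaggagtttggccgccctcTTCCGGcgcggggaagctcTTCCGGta
Rbm14: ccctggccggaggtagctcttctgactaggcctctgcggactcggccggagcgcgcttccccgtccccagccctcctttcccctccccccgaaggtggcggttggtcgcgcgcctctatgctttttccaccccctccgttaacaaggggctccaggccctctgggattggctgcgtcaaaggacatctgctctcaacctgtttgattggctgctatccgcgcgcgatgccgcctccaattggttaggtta

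Among the snRNP proteins, all calls against no RA were upward. Of 9 Snrp genes 2 (22.2%) were higher at 4 h and 3 (33.3%) at 6 h, with 0 lower, and the subfamily median was 0.06 and 0.07. All genes gave 12.8% and 15.0% higher and 14.1% and 14.7% lower. Snrpb2, the U2 snRNP protein B″, read 11.95, 11.98 and 11.83 on untreated arrays A, B and C, 12.03, 12.03 and 11.92 at 2 h, 12.17, 12.12 and 12.11 at 4 h and 12.21, 12.22 and 12.15 at 6 h. The 4 and 6 h arrays were all above the untreated ones, by 0.21 (SE 0.06, adjusted p = 0.0209) and 0.27 (SE 0.06, adjusted p = 0.00454). Snrpb, which codes for a protein of the Sm ring common to most spliceosomal snRNPs, was higher by 0.19 and 0.21 (adjusted p = 0.0361 and 0.0201). Snrpn, an imprinted Sm gene, was at 0.17 and 0.07 on the probe set that names it alone, and not called. Probe set 1415895_at, which names Snurf and Snrpn and had a mean log2 level of 12.14, was at -0.03 and -0.11, not called. Snrpc, the U1 protein C, was called at 6 h only, at 0.15 (adjusted p = 0.0477). Leaving out any of 2 arrays ended the 4 h call of Snrpb2, with the adjusted p up to 0.0740 without 4 h replicate A. For Snrpb 6 arrays did so at 4 h and 2 at 6 h (up to 0.133 without 4 h replicate A and 0.0784 without 6 h replicate B), and for Snrpc 11 of 12 did (up to 0.151 without 6 h replicate B).

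The U2 auxiliary factor and the U2-bound SF3A and SF3B complexes recognise the 3′ splice site and the branch site. Of the 3 U2af genes, 1 was higher at 4 h and 2 at 6 h, and of the 9 Sf3a and Sf3b genes 2 were higher and 1 lower at 4 h, and 4 higher at 6 h. U2af1l4, a paralog of the 3′ splice site reader U2af1, read 9.50, 9.41 and 9.40 untreated, 9.43, 9.32 and 9.33 at 2 h, 9.60, 9.58 and 9.63 at 4 h and 9.65, 9.73 and 9.74 at 6 h. The 6 h arrays stood clear of the untreated ones at 0.27 (SE 0.06, adjusted p = 0.00431), a call kept without each array, while the 4 h difference of 0.17 (adjusted p = 0.0483) lost its call without 11 of the 12 arrays in turn, with an adjusted p of 0.129 without 4 h replicate C. U2af1 itself was higher at 6 h by 0.20 (adjusted p = 0.0292, and up to 0.105 without 6 h replicate A, 1 of 3 arrays that ended the call). U2af2, its partner that binds the polypyrimidine tract, was at 0.05 at both times and not called.

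Sf3b1, the branch site scaffold, was the lower one at 4 h. Its brightest probe set read 12.75, 12.75 and 12.83 untreated and 12.56, 12.64 and 12.62 at 4 h, with no overlap. The difference of -0.17 (SE 0.06, adjusted p = 0.0404) lost its call without any of 11 arrays in turn (adjusted p up to 0.133 without 4 h replicate A), and at 6 h it was -0.15 and not called. In the limma fit of all probe sets 2 of its 4, not the brightest, were called lower at 4 h, and the highest was at 0.07. The largest fall was -0.62 in 1418562_at (adjusted p = 0.0359). That call was lost without 3 arrays (up to 0.147 without 4 h replicate A). Sf3a3 was higher at both times, by 0.25 and 0.22 (adjusted p = 0.025 and 0.0431). Leaving out 5 arrays ended the first call (up to 0.0731 without 4 h replicate C) and 8 the second (up to 0.132 without 6 h replicate B). Its other probe set, 1432488_a_at, was higher by 0.32 and 0.49 (limma over all probe sets, adjusted p = 0.0086 and 0.00047). Both of those calls were kept without each array. Sf3b4 was called at 4 h, at 0.24, and Sf3a1, Sf3a2 and Sf3b3 at 6 h, at 0.19, 0.17 and 0.20. Of these, Sf3b3 lost its call without 1 array (adjusted p = 0.0527 without 6 h replicate A), Sf3a1 and Sf3b4 without 4 each (up to 0.105 without untreated B and 0.102 without 4 h replicate B) and Sf3a2 without 10 (up to 0.129 without 6 h replicate B). A dimmer probe set of Sf3b3, 1430075_at, was higher by 0.36 at 4 h and 0.41 at 6 h (limma over all probe sets, adjusted p = 0.00968 and 0.00422). Its calls were kept without each array. No probe set of Sf3a1, Sf3a2 or Sf3b4 was called in that fit against no RA.

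Several Prpf genes code for proteins of the U4/U6.U5 particle or of the complex that activates it. Of all 12 Prpf genes, 2 (16.7%) were higher at 4 h and 3 (25.0%) at 6 h, with 0 lower. Over all genes 12.8% and 15.0% were higher and 14.1% and 14.7% lower. Prpf31, which bridges the U4/U6 particle to U5, read 9.56, 9.35 and 9.49 untreated, 9.30, 9.23 and 9.16 at 2 h, 9.58, 9.74 and 9.73 at 4 h and 9.98, 9.89 and 9.97 at 6 h. The 2 h arrays were all below the untreated ones without a call (-0.24, adjusted p = 0.118), the 4 h arrays were just above them, and the 6 h arrays stood clear at 0.48 (SE 0.07, adjusted p = 0.000437). Its step from 2 to 4 h was 0.45 (adjusted p = 0.00113), and both of these calls were kept without each array. Its 4 h call against no RA was marginal: 0.21 with an adjusted p of 0.0495, and up to 0.171 without untreated B, 1 of 10 arrays that ended it. The dimmer of the 2 probe sets of Prpf31 was at -0.01 at 4 h and 0.12 at 6 h, not called.

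Prpf4, another U4/U6 protein, was higher by 0.40 at 4 h and 0.33 at 6 h (adjusted p = 0.00761 and 0.0183, the second 0.0629 without 6 h replicate A). Its untreated arrays read 10.16, 10.14 and 9.77, of which C was the low one, and the 4 h arrays 10.41, 10.43 and 10.44. The mean of its probe sets gave 0.14 at 4 h and 0.0008 at 6 h, neither called. Prpf19, a ubiquitin ligase of the activating complex, was higher at 6 h by 0.19 (adjusted p = 0.0305, up to 0.103 without 6 h replicate A, 1 of 4 arrays that ended the call) and in the step from 2 to 4 h by 0.27 (adjusted p = 0.00679). Prpf8, the core of the catalytic centre, was at -0.02 and 0.03, and the kinase Prpf4b at -0.03 and 0.05; neither was called.

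Among SR genes the calls depended on the probe set. On the brightest probe sets, 2 of 10 Srsf genes were higher at 4 h (background 12.8%), and 2 were higher and 1 lower at 6 h (15.0% and 14.7%), with medians of 0.11 and 0.06. Over all 33 Srsf probe sets, 12 (36.4%) were higher at 4 h and 10 (30.3%) at 6 h, with 0 and 1 lower, where all probe sets gave 9.34% and 10.8% higher. These probe sets read only the 10 genes, so a gene can count several times. At 4 h Srsf3 held 4 of the higher calls and Srsf1 and Srsf10 held 3 each. At 6 h Srsf1 held 5 and Srsf3 and Srsf10 held 2 each. Srsf1, the founding SR protein, read 12.70, 12.66 and 12.50 untreated, 12.68, 12.64 and 12.57 at 2 h, 12.81, 12.88 and 12.86 at 4 h and 12.96, 12.92 and 12.87 at 6 h. Every 4 and 6 h array was above every untreated one, by 0.23 (SE 0.07, adjusted p = 0.0188) and 0.30 (SE 0.07, adjusted p = 0.00419). The 6 h call was kept without each array, and the 4 h call was lost without 4 h replicate B or C (0.0677 and 0.0517). Of its 7 probe sets the largest difference was in a dimmer one, at 0.61 and 0.62.

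Srsf4, also an SR protein, fell by 0.23 at 6 h (adjusted p = 0.0218, up to 0.0817 without untreated A, 1 of 4 arrays that ended the call). Its untreated arrays read 11.62, 11.50 and 11.34 and its 6 h arrays 11.24, 11.25 and 11.26, so the gap to untreated C was narrow. Srsf12 was higher at both times, by 0.39 and 0.40, but lay at 2.96 to 3.66 on all 12 arrays, under the median of all values, and its 4 h call was lost without 4 h replicate A (adjusted p = 0.0537). The SR genes Srsf6 (-0.06 and 0.04), Srsf2 (0.17 and 0.14), Srsf3 (0.21 and 0.13) and Srsf5 (-0.08 and -0.28) were not called at either time on their brightest probe set. Both Tra2 genes, coding for SR-like activators, lay at 0.20 and 0.21 at 4 h and were not called.

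Among 19 hnRNP genes, 4 (21.1%) were higher and 3 (15.8%) lower at 4 h and 5 (26.3%) higher and 3 (15.8%) lower at 6 h, with medians of -0.06 and 0.0087. Over all genes 12.8% and 15.0% were higher. The lower shares are near those over all genes, 14.1% and 14.7%. Of their 58 probe sets 11 (19.0%) were higher and 10 (17.2%) lower at 4 h and 14 (24.1%) and 5 (8.62%) at 6 h. All probe sets gave 9.34% and 9.36% at 4 h and 10.8% and 9.83% at 6 h. The 3 lower genes were the same at both times: Hnrnpl, Hnrnpll and Hnrnpul1. Hnrnpl, which binds CA-rich RNA and represses exons beside it, read 12.79, 12.64 and 12.84 untreated, 12.53, 12.47 and 12.60 at 2 h, 12.24, 12.40 and 12.28 at 4 h and 12.31, 12.40 and 12.37 at 6 h. It was already under every untreated array at 2 h, without a call (-0.22, adjusted p = 0.131), and fell by 0.45 at 4 h and 0.39 at 6 h (SE 0.07, adjusted p = 0.000656 and 0.00121).

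Hnrnpll, its paralog known for switching exons of the Ptprc transcript in lymphocytes, followed the same course. Its arrays read 11.94, 11.88 and 12.05 untreated, 11.76, 11.79 and 11.75 at 2 h, 11.41, 11.57 and 11.58 at 4 h and 11.48, 11.56 and 11.65 at 6 h. No treated array reached an untreated one; the 2 h difference was -0.19 (adjusted p = 0.203), and the gene fell by 0.44 at 4 h and 0.39 at 6 h (SE 0.07, adjusted p = 0.000819 and 0.00131). Both probe sets of Hnrnpll were called lower at both times, but the 6 h call of the dimmer one, 1427144_at, was marginal (-0.19, adjusted p = 0.049) and was lost without any of the 12 arrays in turn (up to 0.134 without 6 h replicate B). Hnrnpul1, a relative of the scaffold protein Hnrnpu, fell by 0.30 and 0.29 (adjusted p = 0.0112 and 0.0136), and leaving out 6 h replicate B ended the second call (0.0560). On their brightest probe sets, the calls of Hnrnpl and Hnrnpll against no RA were kept without each array. The dimmer of the 2 probe sets of Hnrnpl was at -0.08 at 4 h and -0.10 at 6 h, not called.

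On the higher side, Hnrnph1, which binds runs of G, had the largest rise of the hnRNP genes at 6 h, and Hnrnpr at 4 h. Hnrnph1 read 12.59, 12.55 and 12.58 untreated, 12.53, 12.44 and 12.51 at 2 h, 12.86, 12.91 and 12.78 at 4 h and 13.06, 13.04 and 12.89 at 6 h. The 4 and 6 h arrays lay above all others, and the gene was higher by 0.28 at 4 h (SE 0.06, adjusted p = 0.00615) and 0.42 at 6 h (SE 0.06, adjusted p = 0.000360). Hnrnpr was higher by 0.33 and 0.39 (adjusted p = 0.00151 and 0.000427), with untreated arrays at 11.29, 11.29 and 11.25 and 6 h arrays at 11.71, 11.71 and 11.60. The mean of its probe sets gave 0.12 and 0.17, not called (adjusted p = 0.316 and 0.146).

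Hnrnpab and Hnrnpc, the latter part of the core particle that packages nascent transcripts, were each higher by 0.18 at 4 h; at 6 h the differences were 0.18 and 0.19. Each of these 4 calls was lost without 2 of the arrays of its own time, with adjusted p up to 0.0821 for Hnrnpab without 4 h replicate B and 0.0816 for Hnrnpc without 4 h replicate A. Hnrnpm was called at 6 h, at 0.26 (adjusted p = 0.0346, up to 0.142 without 6 h replicate B, 1 of 4 arrays that ended the call). The abundant Hnrnpa1 (-0.14 and 0.08) and Hnrnpk (-0.06 and 0.01) were not called.

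The Rbm genes held the largest changes in both directions. Of 43, 15 (34.9%) were higher and 5 (11.6%) lower at 4 h and 16 (37.2%) higher and 4 (9.3%) lower at 6 h. All genes gave 12.8% and 14.1% at 4 h and 15.0% and 14.7% at 6 h. All 6 genes called at 4 h with a log2 difference of at least 0.5, and all 10 at 6 h, were Rbm genes. The 3 Rbms genes, which code for relatives that bind single-stranded nucleic acid, were not called at any time; at 4 and 6 h Rbms1 was at -0.11 and 0.02, Rbms2 at -0.20 and -0.19 and Rbms3 at 0.11 and 0.06. A dimmer probe set of Rbms2, 1433979_at, fell by 0.58 at 4 h (adjusted p = 0.000456), a call kept without each array, and was at -0.25 at 6 h, not called. Rbmx, the hnRNP G gene, was at -0.01 and 0.27 and Rbm25, a splicing regulator with an RE-rich domain, at -0.04 and 0.14, not called. None of the 12 probe sets of Rbm39 was called against no RA. They lay at -0.26 to 0.17 at 4 h and -0.18 to 0.22 at 6 h.

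Rbm15 fell most. It codes for a cofactor that brings the RNA m6A methylation complex to its targets and is needed for Xist function. Its level was 10.86, 11.01 and 10.32 untreated, 10.84, 10.91 and 10.82 at 2 h, 9.64, 9.61 and 9.63 at 4 h and 9.84, 9.81 and 9.81 at 6 h. Untreated C was low among the untreated arrays and still above every 4 and 6 h array. The gene fell by 1.11 at 4 h and 0.91 at 6 h (SE 0.13, adjusted p = 0.000109 and 0.000316), and by 1.24 between 2 and 4 h (adjusted p = 9.41e-05). Its paralog Rbm15b, a cofactor of the same complex, was higher by 0.38 and 0.35 (SE 0.09, adjusted p = 0.00643 and 0.00902), with untreated arrays at 9.29, 9.27 and 8.93 and 4 h arrays at 9.52, 9.53 and 9.60. The calls of both genes were kept without each array. For Rbm15b only 1 of 3 probe sets, the brightest, was called, and the lowest was at -0.03 at 4 h and -0.09 at 6 h.

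Rbm14, a coactivator and paraspeckle protein, was higher at both times. It read 12.17, 12.19 and 11.87 untreated, 12.29, 12.23 and 12.23 at 2 h, 12.90, 12.71 and 12.69 at 4 h and 12.78, 12.60 and 12.54 at 6 h. All 4 and 6 h arrays were above all untreated and 2 h arrays, with differences of 0.69 and 0.56 (SE 0.10, adjusted p = 0.000305 and 0.000919). All 5 of its probe sets were called higher at both times, at 0.55 to 0.85 at 4 h and 0.52 to 0.80 at 6 h. Of them 3 carry the suffix _x_at, which marks probes that can bind other transcripts too.

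**Figure D3:**
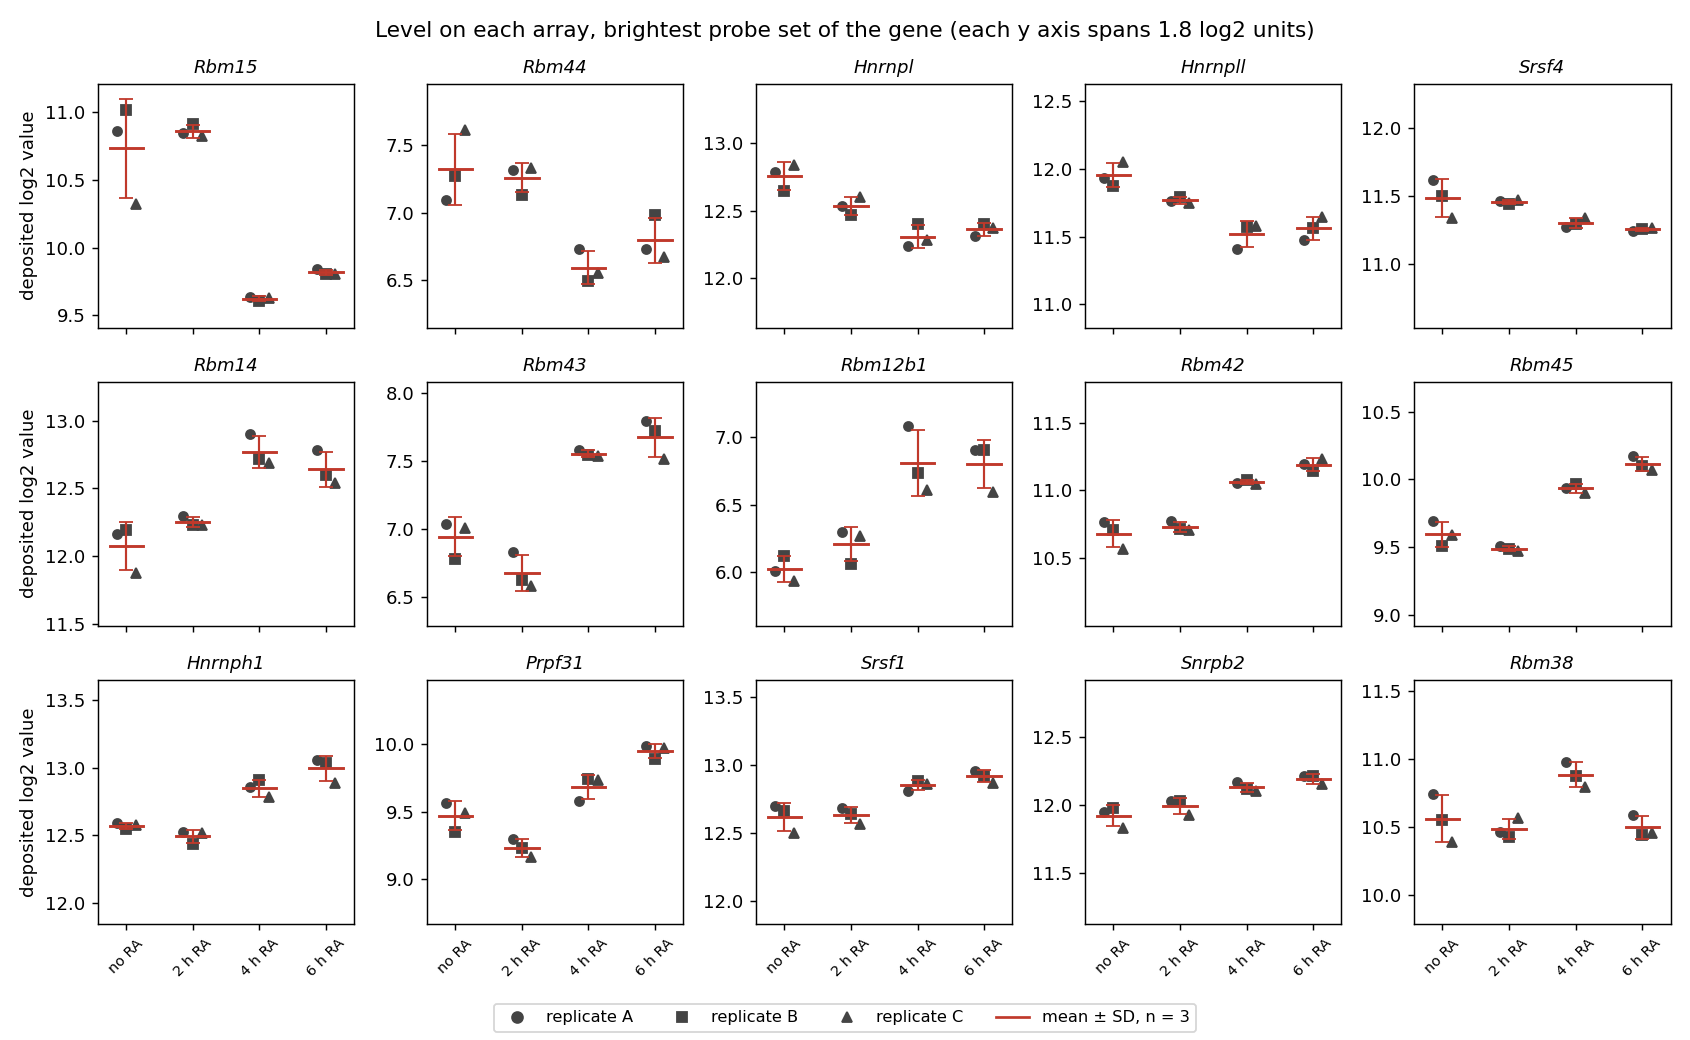
Deposited log2 value on each array (y axis, each panel spanning 1.8 units) by group (x axis) for 15 genes, with the mean and SD of 3 arrays as bars. Rbm15 drops between 2 and 4 h from 10.82 or more to 9.64 or less, Hnrnpl and Hnrnpll step down from 2 h on, Rbm14, Rbm43 and Rbm12b1 are higher at 4 and 6 h, and Rbm38 is higher at 4 h than at the other times.

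Rbm43 showed the largest rise from 2 to 4 h. It read 7.04, 6.78 and 7.01 untreated, 6.83, 6.62 and 6.58 at 2 h, 7.58, 7.55 and 7.54 at 4 h and 7.79, 7.72 and 7.52 at 6 h. The 2 h arrays overlapped the untreated ones and the 4 h arrays lay above both: the step was 0.88 (SE 0.10, adjusted p = 9.58e-05), and the differences from no RA were 0.61 and 0.74 (adjusted p = 0.000589 and 0.000138). Rbm12b1 was higher by 0.79 at 4 h and 0.78 at 6 h (SE 0.12, adjusted p = 0.000695 and 0.000586). Its untreated arrays read 6.01, 6.12 and 5.93, near the median of all values, and its 4 h arrays 7.08, 6.74 and 6.61. Rbm12b2, a near copy of it, was higher by 0.53 and 0.62 (adjusted p = 0.00155 and 0.000498); probes to near copies may bind both, so each value is uncertain.

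Rbm45 and Rbm42 had the smallest adjusted p-values at 6 h among the 107 genes. Rbm45, an RNA-binding protein first described in the developing nervous system, read 9.69, 9.51 and 9.59 untreated, 9.51, 9.49 and 9.47 at 2 h, 9.93, 9.97 and 9.90 at 4 h and 10.17, 10.10 and 10.07 at 6 h. It was higher by 0.34 and 0.52 (SE 0.06, adjusted p = 0.00150 and 7.31e-05). Rbm42, a partner of hnRNP K, read 10.77, 10.71 and 10.57 untreated and 11.19, 11.14 and 11.23 at 6 h, with no overlap, and was higher by 0.38 and 0.51 (SE 0.06, adjusted p = 0.000822 and 9.45e-05). Rbm41 was higher by 0.48 and 0.45 and Rbm17, a U2-linked splicing factor, by 0.28 and 0.33. On the brightest probe sets these calls, and those of Rbm43, Rbm12b1 and Rbm12b2, were kept without each array. The 2 probe sets of Rbm41, Rbm17, Rbm12b1 and Rbm12b2 differed, and the dimmer one was not called in any of these genes. It was at 0.01, 0.13, 0.07 and -0.01 at 4 h. At 6 h it was at -0.18, -0.17, 0.02 and -0.03.

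Some other Rbm genes that were higher have known roles outside splicing. Rbm19, needed for ribosome assembly, was higher by 0.39 at 4 h (adjusted p = 0.0144, 0.0509 without 4 h replicate C) and 0.51 at 6 h (adjusted p = 0.00271). Rbm7, part of a nuclear complex that delivers RNA to the exosome, was higher by 0.25 and 0.31, and Rbm28, a nucleolar protein, by 0.18 at 6 h, where leaving out 6 h replicate A or C ended the call (up to 0.0563). Rbm47, a cofactor of RNA editing, was higher at 6 h by 0.40, and without 6 h replicate A, its highest array, the difference was 0.26 (adjusted p = 0.0788); 3 arrays ended that call. Rbm3os rose from 4.54, 4.62 and 4.98 untreated to 5.33, 5.58 and 5.54 at 6 h (0.77, adjusted p = 0.00246), under the median of all values throughout.

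Rbm38, which binds and stabilises the mRNA of the cell cycle inhibitor p21, was called higher at 4 h only. It read 10.74, 10.55 and 10.39 untreated, 10.47, 10.42 and 10.56 at 2 h, 10.98, 10.88 and 10.80 at 4 h and 10.59, 10.44 and 10.46 at 6 h. The 4 h arrays were the highest of the 12, by 0.32 against no RA (adjusted p = 0.0185) and 0.40 against 2 h (adjusted p = 0.00709). The call against no RA was lost without 4 h replicate A (0.28, adjusted p = 0.0757) and without untreated C. From 4 to 6 h the difference was -0.39 and missed the threshold (adjusted p = 0.0815).

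On the lower side, Rbm44, known from germ cells, read 7.09, 7.27 and 7.61 untreated, 7.31, 7.13 and 7.33 at 2 h, 6.73, 6.5 and 6.55 at 4 h and 6.73, 6.99 and 6.67 at 6 h. It fell by 0.73 and 0.52 (SE 0.13, adjusted p = 0.00130 and 0.00813), with no overlap at either time. Rbm20, the regulator of titin splicing in heart muscle, fell by 0.40 and 0.36 (adjusted p = 0.0226 and 0.0337) at levels of 5.43 to 6.15, near or under the median of all values. Leaving out 3 arrays ended its call at 4 h and 4 arrays its call at 6 h; without 4 h replicate C the 4 h difference was -0.27 (adjusted p = 0.0838), and without 6 h replicate B the 6 h difference was -0.27 (adjusted p = 0.138). On their brightest probe sets Rbm24 and Rbm4b were called lower in the step from 2 to 4 h and not against no RA, at -0.26 (adjusted p = 0.0244, 0.0999 without 2 h replicate B, 1 of 4 arrays that ended the call) and -0.42 (adjusted p = 0.0114, 0.0541 without 2 h replicate B). Another probe set of Rbm4b, 1452112_a_at, was higher against no RA, by 0.52 at 4 h and 0.50 at 6 h (limma over all probe sets, adjusted p = 0.0210 and 0.0235). Those calls were lost without 4 h replicate A (0.0715) and 6 h replicate A (0.105). Against no RA the 3 probe sets of Rbm4b lay at -0.26 to 0.52 at 4 h and 0.14 to 0.50 at 6 h, with 0 called lower. Rbm26, a nuclear RNA decay factor, fell by 0.24 at 4 h (adjusted p = 0.0368, up to 0.0911 without 4 h replicate B, 1 of 7 arrays that ended the call). Its probe set 1426421_s_at, not the brightest, fell by 0.24 at 4 h and 0.41 at 6 h (limma over all probe sets, adjusted p = 0.0213 and 0.000871). The 6 h call was kept without each array, and the 4 h call was lost without 3 arrays. In that fit the brightest probe set was not called, and the highest of the 4 was at 0.12 and 0.20.

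Reading every probe set separately gave the same lean and showed genes whose probe sets disagree. Of 295 probe sets 0 were higher and 2 lower at 2 h (background over all probe sets 0.904% and 0.906%), 53 and 20 at 4 h (9.34% and 9.36%) and 61 and 15 at 6 h (10.8% and 9.83%). The step from 2 to 4 h gave 42 and 8 (9.24% and 7.09%), and that from 4 to 6 h gave 1 and 0 (0.104% and 0.0688%). At 4 h the higher count was 30 without 4 h replicate A and 33 without B, and the lower count 10 without 4 h replicate C. At 6 h the lower count was 9 without 6 h replicate A or C. In the step from 2 to 4 h the higher count was 24, 26, 26 and 27 without 2 h replicate B, 2 h replicate C, 4 h replicate A and 4 h replicate B, and the lower count was 3 to 4 without any 2 h replicate or 4 h replicate B or C, and 21 without untreated C. The 1 call from 4 to 6 h was lost without 4 h replicate A. In 18 genes at 4 h and 14 at 6 h the brightest probe set was not called while another one was.

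Both probe sets that were lower at 2 h belong to Tra2 genes. Probe set 1441466_at of Tra2b read 6.90, 7.40 and 7.06 untreated and 6.38, 6.08 and 6.55 at 2 h. The differences at 2, 4 and 6 h were -0.78, -0.59 and -0.78 (SE 0.15, adjusted p = 0.0181, 0.0146 and 0.00241). Probe set 1442886_at of Tra2a read 8.29, 8.55 and 8.58 untreated and 7.92, 7.74 and 8.09 at 2 h, and its differences at the 3 times were -0.56, -0.56 and -0.37 (SE 0.11, adjusted p = 0.0233, 0.00387 and 0.0319). In both the 2 h arrays lay under all untreated ones, while the brightest probe set of Tra2b was at 0.17 and that of Tra2a at 0.23 at 2 h, neither called. The 2 h calls did not hold without 2 h replicate B (adjusted p = 0.0849 for Tra2b and 0.107 for Tra2a), the 4 h call of Tra2b did not hold without 4 h replicate A (0.0601), and the 6 h call of Tra2a did not hold without 6 h replicate C (0.109); without 2 h replicate A or B the count of lower probe sets was 0, and without untreated C it was 6. A second probe set of Tra2b, 1419543_a_at, was higher at 4 h (0.30, adjusted p = 0.0347, 0.101 without 4 h replicate A), opposite to 1441466_at.

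Hnrnpu, the scaffold attachment factor, was split as well. Probe set 1423050_s_at read 12.23, 12.07 and 11.95 untreated, 12.63, 12.58 and 12.50 at 4 h and 12.77, 12.64 and 12.57 at 6 h, higher by 0.49 and 0.57 (SE 0.08, adjusted p = 0.00164 and 0.000451). Probe set 1434390_at read 10.58, 10.62 and 10.30 untreated and 10.05, 10.05 and 9.73 at 4 h, a difference of -0.56 (SE 0.15, adjusted p = 0.0181), and 1434391_at was at -0.55 (adjusted p = 0.0220). At 6 h these 2 were at -0.27 and -0.31, not called. The higher calls were kept without each array, and each of the lower ones was lost without 3 arrays (up to 0.0782 and 0.0808 without 4 h replicate C).

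In Rbm33 the brightest probe set, 1455430_at, read 11.01, 11.0 and 10.92 untreated, 10.48, 10.61 and 10.58 at 4 h and 10.66, 10.65 and 10.71 at 6 h, and fell by 0.42 and 0.30 (SE 0.06, adjusted p = 0.000663 and 0.00457). A dimmer one, 1435391_at, read 8.23, 8.06 and 8.02 untreated and 8.49, 8.51 and 8.52 at 4 h, higher by 0.40 and 0.36 (SE 0.08, adjusted p = 0.00479 and 0.00874). Neither overlapped the untreated arrays, and these 4 calls were kept without each array, so the gene has no single direction here. Rbm5, which regulates splicing of apoptosis genes such as Fas, had the one probe set that changed from 4 to 6 h: 1441319_at read 6.28, 6.44 and 6.41 at 4 h and 7.03, 6.93 and 6.99 at 6 h (0.61, SE 0.07, adjusted p = 0.00554, 0.0511 without 4 h replicate A). The brightest probe set of Rbm5 was at -0.02 in that step. Against no RA it was higher by 0.26 at 4 h and 0.24 at 6 h (limma over all genes, adjusted p = 0.00663 and 0.00989). Both of those calls were kept without each array.

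For several abundant factors dimmer probe sets were called and the brightest was not. Srsf3, an SR protein that also takes part in mRNA export, was not called on its brightest probe set, and 4 of its other 5 were called higher at 4 h, of which 1454993_a_at lost the call without 4 h replicate A (adjusted p = 0.0565) and 1434512_x_at without 5 arrays (up to 0.0940 without 4 h replicate B); 1416152_a_at read 11.52, 11.62 and 11.27 untreated and 12.14, 11.98 and 11.89 at 4 h (0.53, SE 0.10, adjusted p = 0.00191). Srsf10, a splicing repressor when dephosphorylated, was called higher on 3 of 4 probe sets at 4 h, at 0.48 to 0.61, and 1449121_at reached 0.70 at 6 h (adjusted p = 0.000886). The calls of 1449121_at were kept without each array, while at 4 h that of 1418526_at was lost without 3 arrays and that of 1418527_a_at without 2 (adjusted p = 0.117 and 0.0901 without 4 h replicate A), with differences down to 0.37 and 0.29 on leaving out 1 array. Hnrnpa2b1 was called higher on 3 of 4 at both times, at 0.32 to 0.36 and 0.37 to 0.51. Its 6 h calls were kept without each array, and its 4 h calls were lost without 6 arrays for 1433829_a_at (up to 0.132 without 4 h replicate C) and 3 each for 1433830_at and 1434047_x_at (up to 0.0804 and 0.0712 without 4 h replicate A). In Rbm8a, the exon junction protein Y14, 1 of 2 was higher, by 0.51 and 0.46 (adjusted p = 0.00169 and 0.00283), and the brighter one was at -0.03 and 0.0003. Where on the transcripts these probe sets lie was not analysed here.

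**Figure D4:**
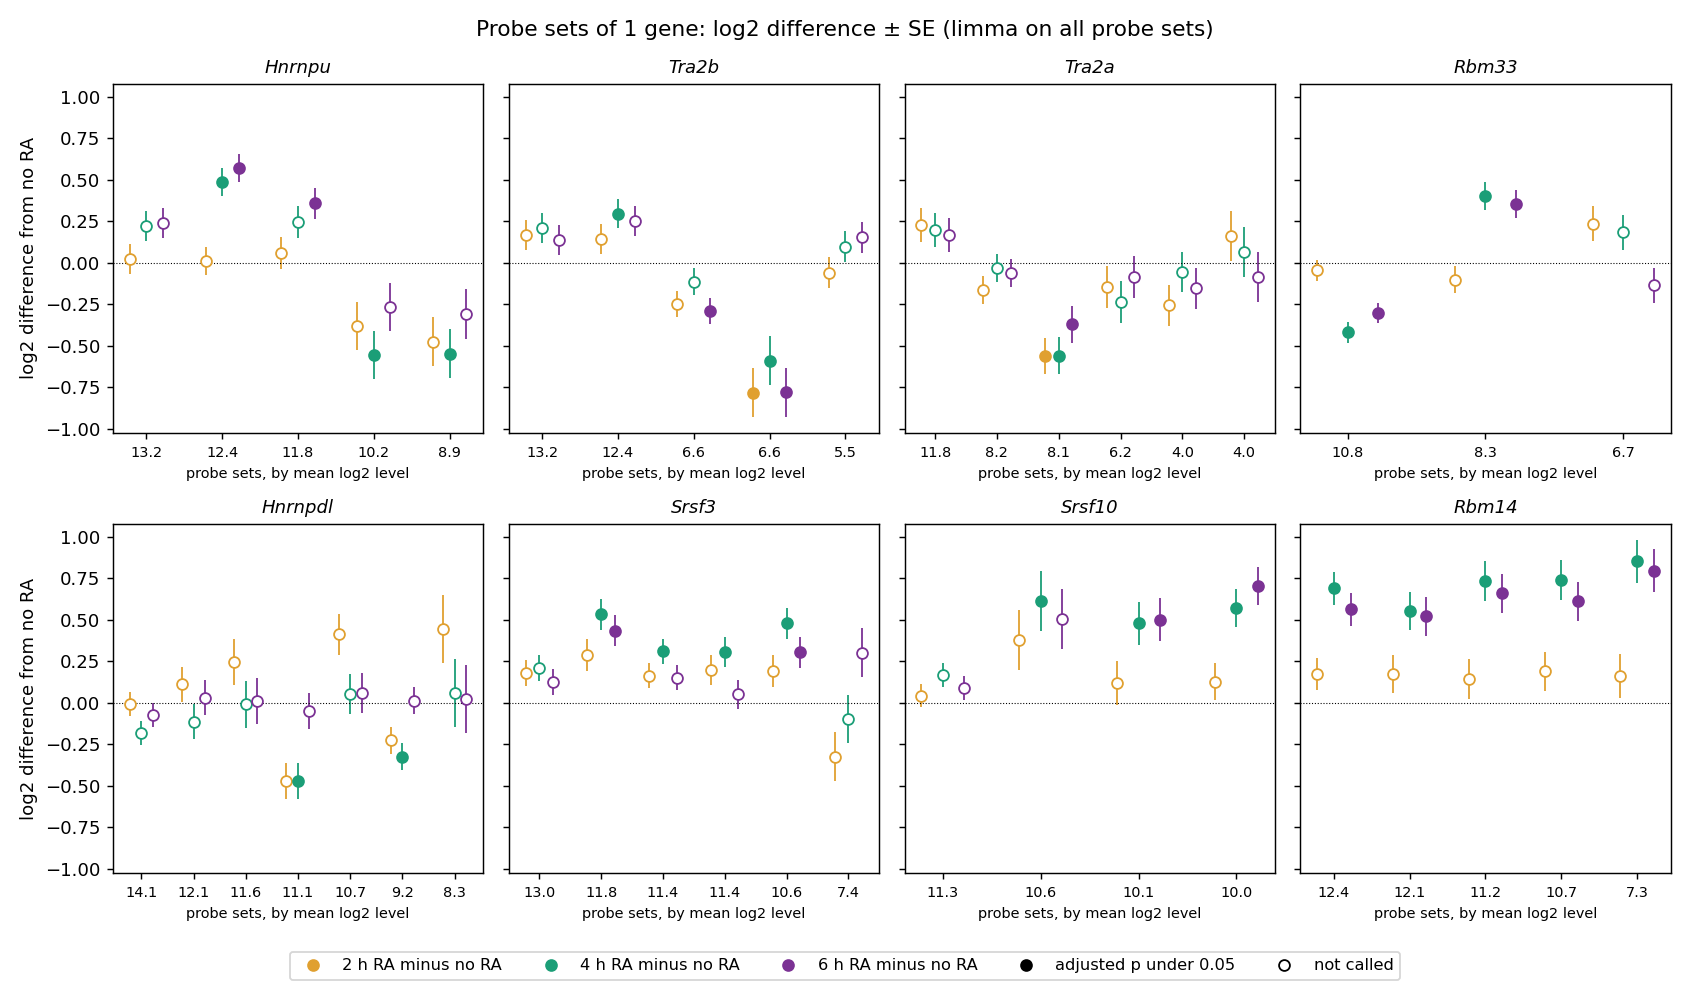
Log2 difference from no RA with SE (y axis) for each probe set of 8 genes, ordered from bright to dim and marked by its mean log2 level over the 12 arrays (x axis); filled points are called by limma over all probe sets. Hnrnpu, Tra2b and Rbm33 hold filled points on both sides of 0 at 4 h, Srsf3 and Srsf10 are open at the brightest probe set and filled at dimmer ones, and all 5 of Rbm14 are filled at 4 and 6 h.

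Other genes of the splicing machinery, from lists outside the naming rule, were counted in the same fit, where all genes gave 12.8% higher and 14.1% lower at 4 h and 15.0% and 14.7% at 6 h. Of 50 other core spliceosome genes measured, 9 were higher and 2 lower at 4 h and 12 and 1 at 6 h; the helicases Dhx8 (0.43 and 0.43) and Dhx16 (0.48 and 0.49) were higher, and Snrnp48, a protein of the minor spliceosome, fell by 0.66 and 0.56. Of 24 exon junction and SR-related genes, 4 were higher and 1 lower at 4 h and 8 and 1 at 6 h. The 42 other RNA-binding regulators went both ways, with 8 higher and 12 lower at 4 h and 11 and 13 at 6 h. Among them the paraspeckle gene Pspc1 was higher by 0.88 and 0.97 and the neural regulator Ptbp2 by 0.37 and 0.50, while Mbnl2 fell by 0.79 and 0.69 and Rbfox3 by 0.80 and 0.90. Of the 7 kinases that phosphorylate SR proteins, Clk1 and Clk4 were lower at 2 h (-0.43 and -0.33; Clk4 was not called without 2 h replicate B, adjusted p = 0.117) and Clk1, Clk2 and Clk4 higher at 4 h (Clk4 not without 4 h replicate B, adjusted p = 0.0720), whereas Srpk2 fell by 1.42 at 4 h and 1.51 at 6 h. No test was made of these lists against the rest of the genes.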

How the data were processed

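RNA of 12 samples, 3 per group, was hybridised to 1 Affymetrix array each. The deposited log2 values were normalised by the authors with a method not given in the sources used here; limma 3.4.3 is listed in the submitters' processing notes. The values were used as deposited. Of 45101 probe sets 64 controls were left out. Each gene was represented by its brightest single-gene probe set (highest mean over all arrays).

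All 12 arrays entered 1 fit of limma 3.58.1 under R 4.3.3 (lmFit, eBayes), which had 8 residual degrees of freedom and, for genes, 3.78 from the prior, with Benjamini-Hochberg adjustment over all 18193 genes or 45037 probe sets and a threshold of 0.05. Tables and figures used Python 3.11.15, numpy 2.4.6, pandas 2.3.3 and matplotlib 3.10.9. The fit was tested on simulated data. The number of arrays limits the precision. Same-letter replicates were checked for pairing: 4 of 18 same-letter pairs and 5 of 36 different-letter pairs of arrays from different groups deviated together at r over 0.1. Letters were not taken as pairs in the main fit. Between the 4 h and 6 h arrays the same-letter r was 0.27 for A, 0.06 for B and 0.31 for C, so some shared deviation between these 2 groups is possible.

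Members, lists and rules were chosen with earlier results of these data known. Named were 60 genes: up to 4 called genes with the largest rise or fall per subfamily and time, up to 5 each way per step, genes with opposed probe sets, and a fixed set. Rbm7, Rbm15b, Rbm17, Rbm26, Rbm28, Rbm38, Rbm41, Rbm42, Rbm45 and Rbms2 lie outside that rule and were chosen after their values were seen. Alternatives were quantile normalisation, median centring, a filter on dim probe sets, trended robust variances, array weights, only the groups compared, the replicate letter as a block, other choices of probe set, stricter thresholds and each array left out. Srsf7, Snrpa, Snrpd1, Rbm3 and Rbm10 had no probe set of their own.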

Additional observations from a re-analysis of the deposited data

Results flagged for a closer look

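Several results differed between 2 h and 4 h of RA by limma's direct test of that difference. The untreated arrays are in neither mean but enter the spread of the shared fit. In it 23 of the 107 genes were higher (21.5%, background 12.7%) and 8 lower (7.48%, background 11.9%) at 4 h. The log2 difference of 4 h minus 2 h was 0.88 for Rbm43, 0.70 for Rbm3os, 0.60 for Rbm12b1, 0.52 for Rbm14 and 0.48 for Rbm19. It was -1.24 for Rbm15, -0.67 for Rbm44, -0.42 for Rbm4b, -0.37 for Rbm33 and -0.26 for Rbm24. For Rbm33 the sign turned under the mean of its probe sets (0.03), as it did for Rbm4b (0.11).

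The 28 probe sets that name a splicing gene together with another gene are used in none of the counts above. Against no RA, 1 was higher and 2 were lower at 4 h, where all probe sets gave 9.34% and 9.36%, and 6 were higher at 6 h, where all gave 10.8%; the 4 h counts are no more than that background. Probe set 1416920_at, which names Gm21992 and Rbm4, was at 0.95 and 1.12 (limma, adjusted p = 0.000157 and 3.8e-05), while 1443033_at of the same genes was at -1.0 at 4 h (adjusted p = 5.6e-05) and -0.31 at 6 h, not called. Rbm4 is a splicing regulator whose own signal cannot be told apart here from the readthrough gene.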

How the results depend on the processing

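The number of arrays, 3 a group, limits every count, and calls near the threshold moved most. Quantile normalisation and median centring kept every count of genes within 1.5 times. With a replicate block (letters as a term) genes higher and lower were 30 and 8 at 4 h, 34 and 7 at 6 h and 22 and 8 from 2 to 4 h, all within 1.5 times. With only the groups compared, higher genes were 15 at 4 h and 18 at 6 h, and lower ones 13 from 2 to 4 h; probe sets were 0 lower at 2 h, 27 and 12 at 4 h, 39 and 7 at 6 h and 16 lower from 2 to 4 h. At an adjusted p under 0.01, genes were 13 and 5 at 4 h, 20 and 5 at 6 h and 15 and 3 from 2 to 4 h; probe sets were 0 lower at 2 h, 25 and 10, 36 and 7, and 18 and 3. With a log2 difference of at least 0.5, genes were 4 and 2, 8 and 2, and 4 and 2; probe sets were 15 and 9, 20 and 3, and 9 and 2. Array weights gave genes 1 higher at 2 h, 36 and 14 from 2 to 4 h and 1 and 1 from 4 to 6 h; probe sets 2 and 4 at 2 h, 24 lower from 2 to 4 h and 2 and 1 from 4 to 6 h. Trended robust variances gave 4 genes and 5 probe sets lower at 2 h, 15 probe sets lower from 2 to 4 h and 1 gene and 1 probe set lower from 4 to 6 h. The dim filter gave 1 gene lower at 2 h and 1 from 4 to 6 h, 2 and 5 probe sets at 2 h and 17 lower from 2 to 4 h; quantile normalisation gave 1 probe set higher at 2 h, and the mean of probe sets 5 genes lower from 2 to 4 h.

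Leaving out each array gave 0 to 1 genes higher and 0 to 2 lower at 2 h, 17 to 29 and 6 to 11 at 4 h, 21 to 34 and 5 to 12 at 6 h, 17 to 30 and 4 to 14 from 2 to 4 h, and 0 to 1 lower from 4 to 6 h. For probe sets it gave 0 to 2 and 0 to 6, 30 to 51 and 10 to 29, 44 to 62 and 9 to 21, 24 to 58 and 3 to 21, and 0 to 2 and 0 to 1. The sign turned under the mean of probe sets for Hnrnpa2b1 (0.24 at 4 h, 0.32 at 6 h), Rbm33 (0.057 at 4 h, 0.027 from 2 to 4 h), Rbm4b (0.11 from 2 to 4 h), Rbm8a (0.24 at 4 h), Sf3a1 (-0.015 at 6 h) and Prpf4 (-0.0 from 2 to 4 h), and for Srsf6 without suffixed probe sets (0.38 at 4 h). The cause was not tested.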

Other observations

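Probe sets shared with another gene also covered members without one of their own. Of 3 probe sets naming Rbm10 and Gm15455, 1423740_a_at and 1423741_at were higher at 6 h, by 0.22 and 0.25 (limma, adjusted p = 0.0284 and 0.0158), and 1423742_at was at 0.04, not called (adjusted p = 0.886). Of those naming the cold-shock gene Rbm3 and Rbm3-ps, 1422660_at was higher at 6 h by 0.30 (adjusted p = 0.0201), and the dimmer 1429169_at was at -0.58 at 4 h (adjusted p = 0.0330) and 0.27 at 6 h, not called. Probe set 1441880_x_at, naming U2af1l4 and Igflr1, was higher at 6 h by 0.70 (adjusted p = 0.000769) at a mean level of 6.00, under the median of all values.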
